A study of Homo sapiens with 31 samples.

Results

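RAPGEF5 and FMN1 each gave rise to a small set of circular RNAs (circRNAs). Together they had 20 of the 55371 deposited circRNAs and 1246 of their 1029205 back-splice reads. The paper reports a larger number of distinct circRNAs, and the difference was not examined. The members were all structures whose named transcript belongs to either gene in the GENCODE annotation, 9 for RAPGEF5 with 743 reads and 11 for FMN1 with 503 reads. Both genes were selected on their rise from untreated day 45 to untreated day 90, so that comparison is described here without a test, as is every other comparison with an untreated day 45 or day 90 group. Tests were kept to day 0 and the IGF-1 cultures, which had no part in the choice.

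H9, an established human embryonic stem cell line, was differentiated towards retina for 90 days, and ribosome-depleted total RNA was sequenced from 15 libraries. There were 3 libraries of undifferentiated cells (day 0) and 3 each of day 45 and day 90 without treatment. A further 3 each of day 45 and day 90 came from cultures given recombinant human IGF-1 at 5 ng/ml to day 37 and 10 ng/ml thereafter. The labels describe triplicate plating of 1 line. The p-values therefore measure the spread between these cultures, and the harvest took the whole cell population without selecting retinal structures.

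A circRNA forms when the spliceosome joins the donor site at the end of an exon to an acceptor site upstream of it, and the read crossing that back-splice junction is the only evidence of the circle counted here. RAPGEF5 encodes a guanine nucleotide exchange factor that loads Rap GTPases, which regulate cell adhesion and junctions. FMN1 encodes formin 1, a member of the family that nucleates and elongates unbranched actin filaments and that acts at cadherin-based cell junctions with alpha-catenin. Neither statement concerns the circles themselves, whose functions were not measured.

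The 6 members with at least 10 reads over the 15 libraries were 2 circRNAs of RAPGEF5 and 4 of FMN1. Their junction sequences are shown because they are what the counted reads had to cross. Each line has the last 15 bases of the donor exon in lower case and the first 15 bases of the acceptor exon in capitals, 5′ to 3′ on the minus strand of hg19.
RAPGEF5 exon 2-5 (chr7:22347958-22357656): tggcatctgtgaactACTCTATCAAGAAGA
RAPGEF5 exon 2-6 (chr7:22330794-22357656): cgtctaacatctgcgACTCTATCAAGAAGA
FMN1 exon 4 (chr15:33445249-33447246): accagtcacctccagGCAGTCTCATTGCTG
FMN1 exon 13-17 (chr15:33149216-33194241): agttcttccaaaaagATTTTTACATGAGTT
FMN1 exon 13-16 (chr15:33180373-33194241): agaggcaactagaagATTTTTACATGAGTT
FMN1 exon 11-17 (chr15:33149216-33202736): agttcttccaaaaagCCATTTTCAATGTGG

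Both RAPGEF5 circRNAs used the same acceptor, at exon 2, and differed only in the donor. FMN1 exon 13-17 and exon 13-16 also shared an acceptor, and FMN1 exon 13-17 shared its donor with exon 11-17. Members that share a splice site are not independent measurements. All 6 junctions lay at annotated exon ends, with AG before the acceptor in 6 of 6 and GT after the donor in 6 of 6.

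RAPGEF5 lies on chromosome 7 from 22157854 to 22396773, and its exons are numbered here along a transcript of 26 exons. Its leading circRNA by reads, exon 2-5, had 437 reads and joined 4 coding exons into 449 nt. Exon 2-6 had 289 reads and added exon 6, for 5 coding exons and 516 nt, a multiple of 3, whereas 449 leaves a remainder of 2. The intron upstream of the shared exon 2 is 38.8 kb long, against a median of 7.53 kb over the 10874 tested circRNAs for which these features could be read.

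FMN1 lies on chromosome 15 from 33057745 to 33486915, with 21 exons in the transcript used for numbering. Its leading circRNA by reads was a single exon, exon 4, which circularised to 1998 nt with 391 reads. Of these bases 131 belong to the annotated 5′ UTR and 1867 are coding. Single-exon circles made up 5.20% of the tested circRNAs with features (565 of 10874) and had a median length of 408 nt. Only 34 of the 565 were at least as long as that of FMN1. The other 3 named FMN1 circRNAs lay further towards the 3′ end of the gene, with 61 reads for exon 13-17, 25 for exon 13-16 and 14 for exon 11-17.

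**Figure D1:**
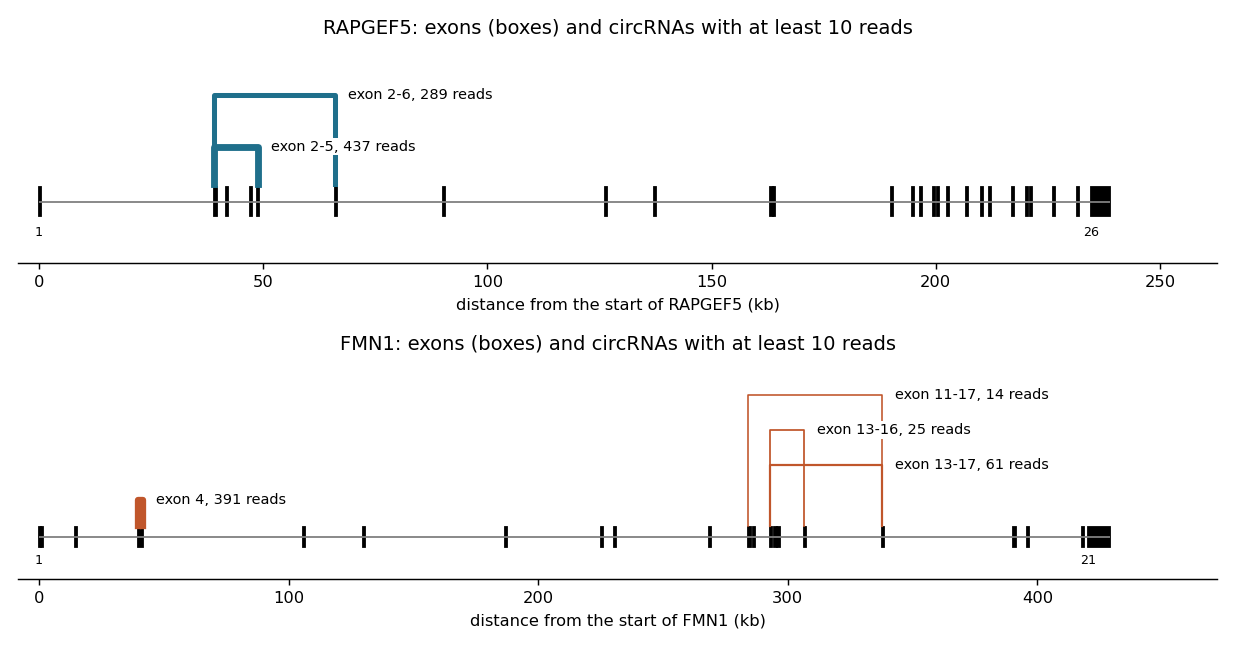
Exons (black boxes) and circRNAs with at least 10 reads (coloured brackets from acceptor to donor exon, line width by reads) against distance from the gene's start in kb, for RAPGEF5 and FMN1. The reads of RAPGEF5 fall on 2 brackets that start at exon 2, and most reads of FMN1 fall on exon 4 (391 reads), far from the 3 smaller circles of exons 11 to 17.

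The remaining members were sparse. The 7 other RAPGEF5 structures had 17 reads in all and at most 8 each, and the 7 other FMN1 structures had 12 reads and at most 4 each. Of the 17 RAPGEF5 reads, 6 came from untreated day 90 and 7 from day 90 with IGF-1, and of the 12 FMN1 reads, 8 and 2. They enter the gene totals below but were too few for values of their own.

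The libraries held between 14992 and 108946 back-splice reads. Total back-splice reads per 1000000 sequenced reads (RPM) were 118 ± 10.96 (SD, n = 3) at day 0, 747 ± 206 at day 45, 619 ± 67.3 at day 45 with IGF-1, 485 ± 156 at day 90 and 574 ± 97.1 at day 90 with IGF-1. The total was higher in every differentiated library than in any day 0 library, so a gene can keep its level per sequenced read and still lose share among circRNAs. RNA integrity numbers were 9.8 to 10 at day 0, 7.6 to 9.1 at day 45 and 7.1 to 8.9 at day 90, and their part in any result was not tested.

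RAPGEF5 circRNAs were already present in undifferentiated cells. Exon 2-5 had 16, 17 and 18 reads in the day 0 libraries, and exon 2-6 had 12, 21 and 11. The gene total at day 0 was 0.238 ± 0.0270 RPM (SD, n = 3), the libraries lying between 0.214 and 0.267. In pluripotent cells RAPGEF5 therefore held a visible share of a small circular pool, 2041 reads per 1000000 back-splice reads as the mean of the 3 libraries.

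FMN1 differed from it at the starting point. No read of any FMN1 circRNA was found in the 3 day 0 libraries, which allows up to 0.00737 RPM over the group (3 counts, counting error only). In such whole-culture RNA, fewer cells of a type and less RNA per cell cannot be told apart.

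The mean level of RAPGEF5 at day 45 was not above that of day 0. Exon 2-5 had 20, 19 and 19 reads in the untreated cultures and 2, 15 and 15 in those given IGF-1. Exon 2-6 had 6, 9 and 1 reads without IGF-1 and 3, 20 and 8 with it. The lowest library was day 45 IGF-1 replicate 1, with 5 RAPGEF5 reads in all, against 35 and 24 in the other two of its group. The total per 1000000 sequenced reads was 0.194 ± 0.0541 at untreated day 45 and 0.160 ± 0.108 at day 45 with IGF-1, and both ranges overlapped that of day 0.

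From day 0 to day 45 with IGF-1 the log2 change of the RAPGEF5 total was -0.54 ± 0.43 (SE), adjusted p = 0.270 by edgeR's quasi-likelihood test over 4616 genes. In that comparison 54.2% of genes passed an adjusted p of 0.05, 2485 of 2501 of them upwards, and the median log2 change of all genes was 2.50. The RAPGEF5 value had 3.21% of tested genes below it. Of the circRNAs 30.7% passed. Exon 2-5 changed by -0.61 ± 0.51 (adjusted p = 0.318) and exon 2-6 by -0.42 ± 0.53 (adjusted p = 0.4997), so neither was called. Scaled to back-splice reads instead (TMM), the RAPGEF5 total fell by 2.49 ± 0.34 on the log2 scale (adjusted p = 1.13e-07) and exon 2-5 fell by 2.135 ± 0.42 (adjusted p = 2.97e-05). That scaling moved the median of all genes from 2.50 to 0.75 and the upward share of called genes from 99.4% to 77.1%. A fall of RAPGEF5 was thus called only relative to other circRNAs.

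FMN1 circRNAs appeared between day 0 and day 45. Exon 4 had 5, 13 and 18 reads at untreated day 45 and 0, 10 and 25 at day 45 with IGF-1. The one library at 0 was again day 45 IGF-1 replicate 1, where a count of 0 allows up to 0.0284 RPM. The FMN1 total was 0.103 ± 0.0350 RPM without IGF-1 and 0.0916 ± 0.0966 with it (SD, n = 3 each).

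Against the floor of 3 counts at day 0, the FMN1 total was at least 13.6-fold higher per sequenced read at day 45 with IGF-1 (adjusted p = 1.34e-08 by edgeR's quasi-likelihood test, higher in 2 of 3 libraries). Exon 4 alone was at least 12.5-fold higher (adjusted p = 1.72e-07). Per back-splice read the bounds were 2.58-fold and 2.37-fold, and both calls also passed under TMM (adjusted p = 0.0153 and 0.000501). The 3 smaller FMN1 circles had 3 reads between them in these libraries, so no change was computed for them.

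**Figure D2:**
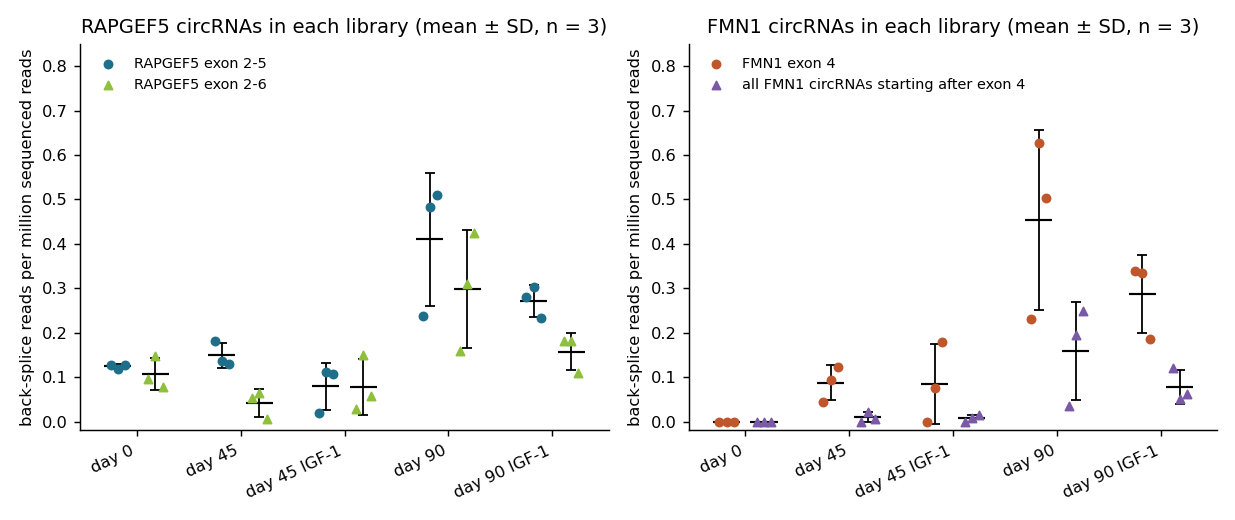
Back-splice reads per 1000000 sequenced reads for the RAPGEF5 circRNAs (left) and FMN1 exon 4 with the summed FMN1 circRNAs that start after it (right), 1 point per library, bars for the mean ± SD of 3. RAPGEF5 is above 0 in all groups, whereas FMN1 is at 0 in all day 0 libraries, and the day 90 groups have the highest means in each series.

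The rise that singled out both genes lay between day 45 and day 90 in untreated cultures. RAPGEF5 exon 2-5 had 33, 67 and 78 reads at untreated day 90 and exon 2-6 had 22, 43 and 65. FMN1 exon 4 had 32, 87 and 77. Day 90 replicate 1 was the lowest in each case. The fitted log2 changes were 1.46 ± 0.45 (SE) for exon 2-5, 2.83 ± 0.54 for exon 2-6 and 2.34 ± 0.48 for FMN1 exon 4, while the median of all circRNAs was -0.61.

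Exon 2-6 and FMN1 exon 4 were the only 2 circRNAs higher at day 90 among the 10 called over 12498 in that contrast (0.08%), which is how the genes came to be picked, and nothing is read from it. For the totals the log2 changes were 1.90 ± 0.42 for RAPGEF5 and 2.55 ± 0.45 for FMN1, to 0.722 ± 0.268 and 0.613 ± 0.302 RPM. The smaller FMN1 circles had their reads here too. Exon 13-17 went from 0, 3 and 1 reads at untreated day 45 to 3, 11 and 24 at untreated day 90. Exon 13-16 was at 0 in all libraries before day 90 and had 2, 8 and 7 reads at untreated day 90. These counts brought exon 13-16 past the filter of 10 reads.

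The IGF-1 cultures gave the same comparison in libraries that had no part in the choice. RAPGEF5 exon 2-5 had 37, 47 and 34 reads at day 90 with IGF-1 and exon 2-6 had 24, 28 and 16. FMN1 exon 4 had 45, 52 and 27 reads, exon 13-17 had 10, 0 and 8, exon 13-16 had 4, 4 and 0, and exon 11-17 had 2, 2 and 1. In RPM the RAPGEF5 total was 0.445 ± 0.0665 and the FMN1 total 0.365 ± 0.109 (SD, n = 3 each). Both totals were higher in every day 90 IGF-1 library than in any day 45 IGF-1 library, a separation seen for 3.29% of all tested genes (152 of 4616).

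The FMN1 total rose from day 45 to day 90 with IGF-1, by 1.92 ± 0.46 on the log2 scale (3.79-fold, adjusted p = 0.0383 by edgeR's quasi-likelihood test). It was 1 of 3 genes called out of 4616 (0.065%), 2 of them upwards. The call rested on single libraries. Without day 45 IGF-1 replicate 1, the library with no FMN1 read, the change was 1.40 (adjusted p = 1). It was also lost without day 45 IGF-1 replicate 2 (1.83, adjusted p = 0.186) and without day 90 IGF-1 replicate 1 (1.72, adjusted p = 0.415), replicate 2 (1.88, adjusted p = 0.158) or replicate 3 (2.14, adjusted p = 0.0525). Without day 45 IGF-1 replicate 3 it was 3.02 (adjusted p = 0.00184). DESeq2's Wald test did not call it (1.96, adjusted p = 1).

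The RAPGEF5 total changed by 1.44 ± 0.42 in the same direction (2.72-fold) and did not pass over all genes (adjusted p = 0.269). Scaled to back-splice reads with TMM it did pass, at 1.64 ± 0.32 (adjusted p = 0.0127). Without day 45 IGF-1 replicate 1 the change was 1.04 (adjusted p = 1). The 2 members lay high among the tested genes, with 97.0% of the log2 changes below that of FMN1 and 94.3% below that of RAPGEF5, against a median of -0.15.

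Of single circRNAs only 2 of 12498 (0.016%) were called from day 45 to day 90 with IGF-1, and no member was among them. Exon 2-5 changed by 1.72 ± 0.48 (adjusted p = 0.503), exon 2-6 by 0.97 ± 0.51 (adjusted p = 0.989) and FMN1 exon 4 by 1.69 ± 0.48 (adjusted p = 0.503). The day 90 libraries of exon 2-5 and FMN1 exon 4 lay above all day 45 libraries, as did those of 3.1% of tested circRNAs (387), while those of exon 2-6 overlapped. With TMM exon 2-5 and FMN1 exon 4 did pass (adjusted p = 0.00470 and 0.00764). FMN1 exon 13-17 had 1 read at day 45 with IGF-1 and 18 reads at day 90 with IGF-1. It passed the filter only through its day 90 reads, so no test is given for it.

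**Figure D3:**
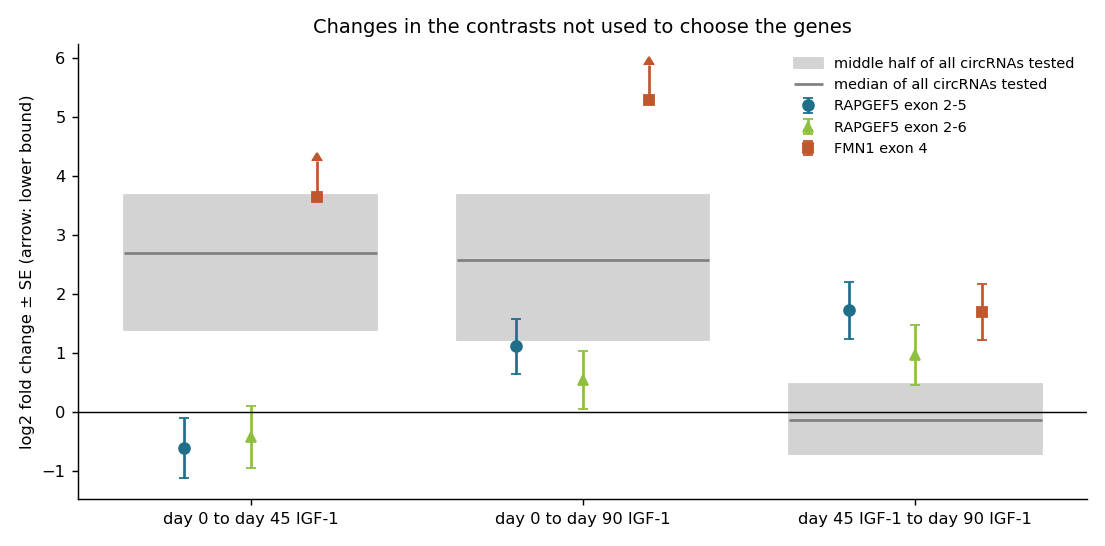
Fitted log2 fold changes ± SE per sequenced read (points) of 3 circRNAs in the comparisons that did not choose the genes, over the median and interquartile range of all 12498 circRNAs tested (grey, with circRNAs absent at day 0 entering at their fitted value). FMN1 exon 4 has no read at day 0, so its points there are lower bounds (squares with arrows), and the RAPGEF5 points lie below the grey median in both comparisons with day 0 and above it from day 45 to day 90 with IGF-1.

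From day 0 to day 90 with IGF-1, FMN1 had the clearest change. Its total was at least 49.2-fold higher per sequenced read (adjusted p = 2.185e-18) and exon 4 at least 38.9-fold (adjusted p = 4.49e-15), both by edgeR's quasi-likelihood test. All day 90 IGF-1 libraries of exon 4 were above 0. Exon 13-17 was at least 5.64-fold higher, on 10, 0 and 8 reads. It passed the filter of 10 reads only through its day 90 reads, so no test is given for it. Per back-splice read the bounds, in that order, were 10.2-fold, 8.05-fold and 1.17-fold. Exon 13-16, with 8 reads at day 90 with IGF-1, and exon 11-17, with 5, reached 10 reads only with those of untreated day 90, so no test is given for them.

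RAPGEF5 was less clear. Its total changed by 0.90 ± 0.41 on the log2 scale per sequenced read (1.87-fold, adjusted p = 0.0539 by the same test). Exon 2-5 changed by 1.11 ± 0.46 (adjusted p = 0.0538) and exon 2-6 by 0.54 ± 0.49 (adjusted p = 0.377). Of all genes 50.1% were called, and of all circRNAs 28.7%. The day 90 IGF-1 libraries lay above all day 0 libraries for both genes, as for 53.6% of genes tested. Per back-splice read the direction of RAPGEF5 turned. The total fell by 0.86 ± 0.30 on the log2 scale with TMM (adjusted p = 0.0473), from 2041 ± 430 to 796 ± 221 reads per 1000000 back-splice reads.

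**Figure D4:**
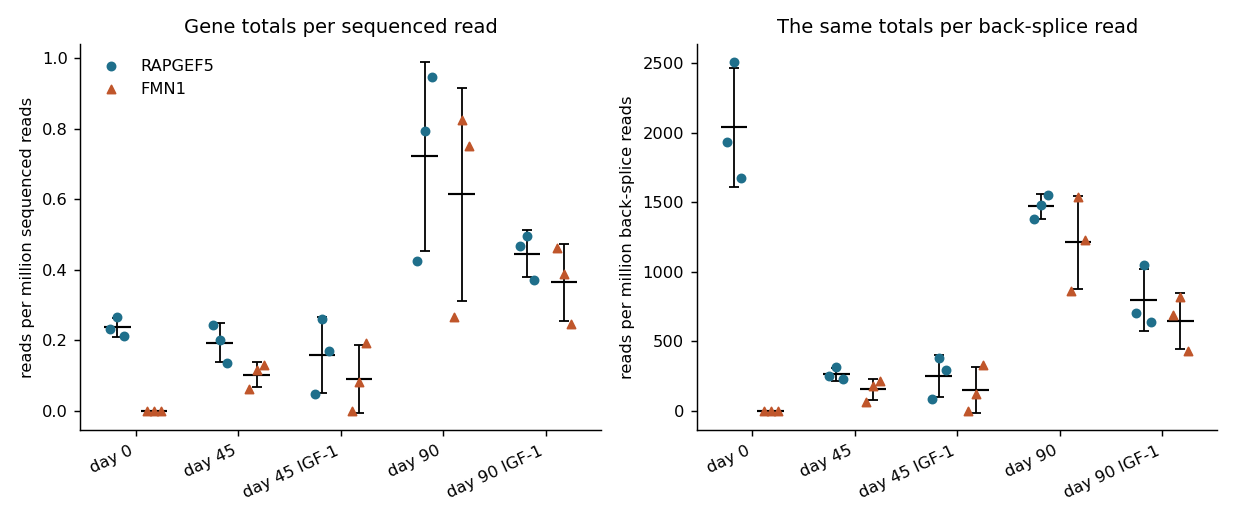
RAPGEF5 and FMN1 totals in each library per 1000000 sequenced reads (left) and per 1000000 back-splice reads (right), with the mean ± SD of 3 libraries. RAPGEF5 is highest at untreated day 90 on the left scale (mean 0.722) and at day 0 on the right scale (mean 2041), and both genes are higher at day 90 than at day 45 on both scales.

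In order of mean RPM, the RAPGEF5 total was highest at untreated day 90 (0.722), then day 90 with IGF-1 (0.445), day 0 (0.238), untreated day 45 (0.194) and day 45 with IGF-1 (0.160). Libraries of neighbouring groups overlapped in that order except between day 90 with IGF-1 (from 0.370) and day 0 (to 0.267). FMN1 had the order 0.613, 0.365, 0.103 and 0.0916 over the differentiated groups, with day 0 at 0. Its neighbours overlapped at each time point, and day 90 with IGF-1 (from 0.247) stood clear of untreated day 45 (to 0.130).

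IGF-1 and untreated cultures of the same day are given side by side only, since an untreated group enters. At day 90 the log2 differences (IGF-1 minus untreated) were -0.70 ± 0.39 for the RAPGEF5 total and -0.75 ± 0.40 for the FMN1 total, and at day 45 they were -0.24 ± 0.44 and -0.12 ± 0.49. Scaled with TMM the day 90 differences were -0.86 ± 0.28 and -0.90 ± 0.35. Both genes were chosen for being high at untreated day 90, so nothing is read from these values.

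Both RAPGEF5 donors were used in every group. Exon 2-6 made up 46.3% of the reads of both circRNAs at day 0 (44 of 95, 95% Wilson interval 36.6 to 56.3), 21.6% at untreated day 45 (16 of 74, 13.8 to 32.3) and 49.2% at day 45 with IGF-1 (31 of 63, 37.3 to 61.2). It made up 42.2% at untreated day 90 (130 of 308, 36.8 to 47.8) and 36.6% at day 90 with IGF-1 (68 of 186, 30.0 to 43.7). Between day 45 and day 90 with IGF-1 the exact permutation test over libraries gave p = 0.3 and between day 0 and day 90 with IGF-1 p = 0.2, where 0.1 is the smallest possible with 3 against 3, two-sided. At untreated day 45 the libraries spread from 5.00% to 32.1%, and that low share enters the rise of exon 2-6 there. At day 45 with IGF-1 they spread from 34.8% to 60%. The intervals pool the reads of the libraries of a group and do not cover the spread between them. The untreated day 45 counts took part in the choice of RAPGEF5, so nothing is read from the share in that group.

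Exon 4 held most FMN1 reads whenever FMN1 was detected. It took 85.7% at untreated day 45 (36 of 42), 92.1% at day 45 with IGF-1 (35 of 38), 73.7% at untreated day 90 (196 of 266) and 79.0% at day 90 with IGF-1 (124 of 157). The mean share over libraries differed by -13.3 points at day 90 from that at day 45 with IGF-1 (exact permutation p = 0.2, n = 2 libraries with FMN1 reads against 3). For RAPGEF5 the share of exon 2-5 in its gene total was 12.8 points higher at day 90 than at day 45 with IGF-1 (exact permutation p = 0.3, n = 3 against 3).

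Other genes of the same pathways were read from lists that leave both members out. The Rap signalling list has 32 gene symbols, for the other Rap exchange factors, the Rap GTPases, their GTPase-activating proteins and effectors. AFDN stands in it also under its former symbol, MLLT4, which had no circRNAs here. Of the 32 symbols 19 had circRNAs by named transcript and 11 passed the filter. CircRNAs that could be assigned only by exon ends do not enter this list or the next. None of the 11 passed the test from day 45 to day 90 with IGF-1 (0 up, 0 down), where 0.065% of all genes did, and their median log2 change was -0.04, against -0.15 over all genes. RAPGEF2, another Rap exchange factor, changed by 0.14 ± 0.58. SIPA1L3, a Rap GTPase-activating protein, changed by -0.04 ± 0.49 and KRIT1, a Rap effector of endothelial junctions, by -0.02 ± 0.48 (adjusted p = 0.997, 0.997 and 0.999).

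From day 0 to day 45 with IGF-1, 9 of the 11 rose and none fell, RAPGEF2 by 2.96 ± 0.78, SIPA1L3 by 2.88 ± 0.64 and KRIT1 by 2.90 ± 0.64 on the log2 scale (adjusted p = 0.00064, 3.52e-05 and 3.00e-05 over all genes). The median of the 11 was 2.90 against 2.50 for all genes, or 2.67 against 2.07 with genes absent at day 0 set to their lower bound. To day 90 with IGF-1, 7 of 11 rose. Of all genes 54.2% were called to day 45 and 50.1% to day 90. Under TMM 0 of 11 were called to day 45 and 1 to day 90, with medians of 1.00 and 1.15 against 0.75 and 0.83 for all genes. Calls also dropped over all 4616 genes under TMM, to 430 up and 128 down at day 45 and 493 up and 147 down at day 90.

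Of 21 formins and partners at cortical actin, 13 had circRNAs by named transcript and 9 passed the filter. From day 45 to day 90 with IGF-1 none was called, against 0.065% of all genes, with a median of -0.35. From day 0, 5 of 9 rose to day 45 with IGF-1 and 5 to day 90 with IGF-1, with none falling per sequenced read, close to the 54.2% and 50.1% of all genes called. Under TMM none of the 9 rose and 1 fell at each time. Of all 4616 genes, TMM called 430 up and 128 down to day 45 with IGF-1, and 493 up and 147 down to day 90 with IGF-1. With 9 genes, these counts are too few to set the list apart from all genes. FMNL2, a formin that acts in protrusions, had the most reads of the list (559), with 3.06 ± 0.51 to day 45 (adjusted p = 2.70e-08) and -0.35 ± 0.42 from day 45 to day 90 with IGF-1 (adjusted p = 0.997). CTNNA1, which encodes alpha-catenin, changed by 1.16 ± 0.61 to day 45 (adjusted p = 0.0912).

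**Figure D5:**
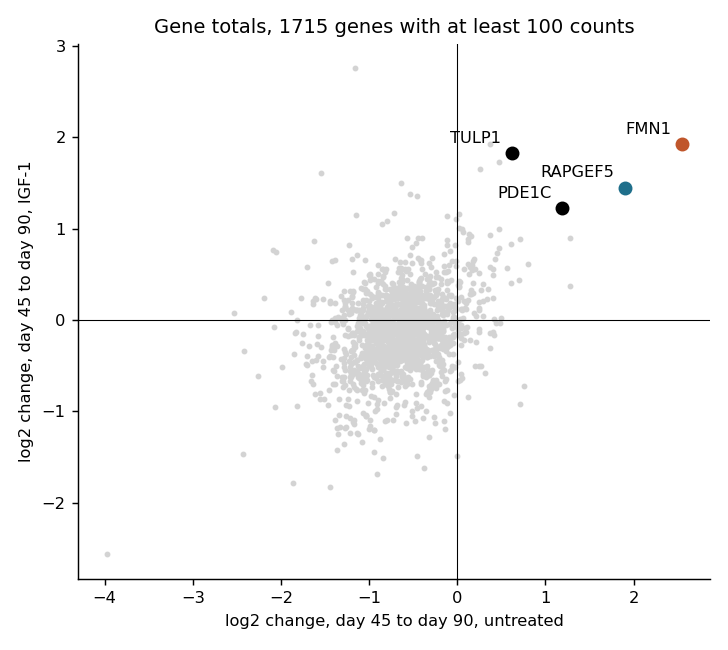
Log2 changes of gene totals from day 45 to day 90 in untreated cultures (x axis, the contrast that chose RAPGEF5 and FMN1) and in IGF-1 cultures (y axis), 1 grey point for each of 1715 genes with at least 100 counts. Both members lie right of and above 0, and on the y axis 2 genes lie above FMN1 and 8 above RAPGEF5. The 2 other labelled genes, PDE1C and TULP1, also lie right of and above 0. They are among the 5 ranked by likeness to FMN1 over these same libraries, so their position is no independent result. Of those 5 genes, 4 changed upwards in untreated cultures and LMO1 did not (-0.10).

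Genes with the most similar pattern were ranked by Pearson's r over the 15 libraries on log2 reads per 1000000 back-splice reads, among 1715 genes with at least 100 counts. For FMN1 they were PDE1C (r = 0.971), which encodes a calmodulin-dependent phosphodiesterase, LMO1 (0.887), a LIM-domain transcriptional regulator, PIK3R1 (0.886), a regulatory subunit of PI3-kinase, TULP1 (0.877), a photoreceptor protein, and FER1L4 (0.870). PDE1C had 0 reads at day 0, 67 and 50 at day 45 without and with IGF-1 and 165 and 125 at day 90. Its log2 change from day 45 to day 90 with IGF-1 was 1.22 ± 0.45 (adjusted p = 0.785), and that of TULP1 1.82 ± 0.61 (adjusted p = 0.583). The others changed less, PIK3R1 by 0.83 ± 0.53, LMO1 by 0.27 ± 0.49 and FER1L4 by 0.04 ± 0.62 (adjusted p = 0.997 each). All 5 had at most 1 read at day 0, which they share with FMN1 and which enters these coefficients. The day 45 and day 90 IGF-1 libraries enter the coefficients too, so the changes of these 5 genes are no independent result.

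For RAPGEF5 the closest were DNAH14 (r = 0.834), a dynein heavy chain gene, ARHGAP26 (0.815), TRPC1 (0.787), a cation channel, NOL10 (0.781) and RAB11FIP1 (0.779). None was called from day 45 to day 90 with IGF-1. DNAH14 changed by 0.19 ± 0.37 and ARHGAP26 by 0.89 ± 0.57 (adjusted p = 0.997 each). Both were ranked over these same libraries, so their changes are no independent result. With each other, RAPGEF5 and FMN1 had r = 0.272 over the same libraries. At day 0 one was present in every library and the other absent.

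Few circRNAs were assigned by named transcript to markers of the cell types such cultures may hold. The makeup of the cultures could therefore not be read from these counts. A further 6744 circRNAs of the series could be assigned only by exon ends and do not enter these lists. Of 12 pluripotency genes 5 had circRNAs, with 6 reads at day 0, 0 at day 45 in either arm and 5 at day 90 over both arms. Of 17 neural retina genes 3 had any, with 1 to 9 reads in the differentiated groups and 0 at day 0. Of 10 pigment epithelium genes 6 had circRNAs, with 3 reads at day 0, 19 and 11 at day 45 without and with IGF-1 and 17 and 32 at day 90. Of 6 glial genes 2 had any, with at most 1 read in a group, of 8 mesenchyme genes 5, with 0 reads at day 0 and 5 to 9 in the later groups, and of 8 epithelium and lens genes 1, with 4 to 15 reads. The part of cell composition in the rise of RAPGEF5 and FMN1 was not tested.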

How the data were processed

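Total RNA of the 15 libraries was sequenced in pairs of 100 bases by the authors, who called back-splice junctions with PTESFinder against GENCODE transcripts on hg19. The deposited table gives the back-splice read count of each circRNA in each library, whole and not normalised. The submitters' processing notes also name TopHat2 2.0.10, HTSeq 0.6.1 and bedtools 2.17. The 16 FIRRE amplicon samples were not used here.

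Exon ends of 99.9% of circRNAs matched the GENCODE 44 annotation of GRCh37, which gave genes, exon numbers and sequences. A gene total is the sum of its structures by named transcript, which gave a gene for 48401 of 55371 circRNAs. A further 6744 could be assigned only by exon ends. These entered gene totals only in the alternative that assigns circRNAs also by exon ends. Library names in the table end in a, b and c and were read as replicates 1, 2 and 3.

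Library sizes were the study's sequenced reads. For untreated day 90, 2 values stood under 1 replicate label, so their mean was used for replicates 1 and 2. Counts were fitted with edgeR 4.0.16 (quasi-likelihood, all 15 libraries, 1 mean per group, no TMM factors, at least 10 counts over the libraries), with Benjamini-Hochberg adjustment over 12498 circRNAs or 4616 genes and a threshold of 0.05. SE is the absolute log2 change divided by the square root of F. The fit was tested on simulated data with known changes. Alternatives were TMM or DESeq2 1.42.0 size factors on back-splice totals, DESeq2's Wald test, other filters, a replicate block, fits of the compared groups, the other read numbers for those 2 replicates, members assigned also by exon ends, and each replicate left out.

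Named circRNAs have at least 10 counts, and likeness takes the 5 closest genes to each member. The members and lists were chosen with earlier results of these data known. Floors are 3 counts, intervals are 95% Wilson, and both cover counting error only.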

Additional observations from a re-analysis of the deposited data

Results flagged for a closer look

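A further 4 circRNAs with exon ends in FMN1 name a transcript that the annotation used here does not hold, so they stood outside the selection rule and entered the FMN1 total only in the alternative that assigns circRNAs also by exon ends. They had 0 reads at day 0 and 16 reads at day 45 and later, against a limit of 3 counts for a group at 0. By group these were 1 read at untreated day 45, 2 at day 45 with IGF-1, 7 at untreated day 90 and 6 at day 90 with IGF-1. With them the FMN1 total would be 0.629 ± 0.315 RPM at untreated day 90 and 0.379 ± 0.118 at day 90 with IGF-1 (SD, n = 3 each). The difference between day 0 and the later groups was not tested for these 4 alone.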

How the results depend on the processing

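Of 387 values recomputed under another setting, 309 kept their direction and their side of the threshold, or for counts stayed within 1.5 times. Causes of the changes were not tested. With TMM and with DESeq2 size factors, in that order, the log2 change from day 45 to day 90 with IGF-1 was 1.64 and 1.62 for the RAPGEF5 total, 1.86 and 1.88 for exon 2-5 and 1.80 and 1.83 for FMN1 exon 4, all now called. From day 0 to day 45 with IGF-1 it was -2.49 and -2.81 for the RAPGEF5 total and -2.135 and -2.75 for exon 2-5, all called. From day 0 to day 90 with IGF-1 RAPGEF5 reversed, to -0.86 and -1.19 for the total, -0.28 and -0.87 for exon 2-5 and -0.87 and -1.46 for exon 2-6. Calls became 7 and 7 circRNAs (day 45 to day 90 with IGF-1), 792 and 407 circRNAs and 558 and 465 genes (day 0 to day 45 with IGF-1), and 906 and 522 circRNAs and 640 and 528 genes (day 0 to day 90 with IGF-1).

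The FMN1 rise from day 45 to day 90 with IGF-1 lost its call with DESeq2's Wald test (1.96, adjusted p = 1), with no filter (1.92, adjusted p = 0.0718), at 50 counts or more (1.92, adjusted p = 0.318) and in a fit of the compared groups only (1.90, adjusted p = 0.266). It kept its call in 5 of 9 settings other than leaving out a library. Among them edgeR's quasi-likelihood test gave 2.06 with TMM (adjusted p = 0.0213) and 2.04 with DESeq2 size factors (adjusted p = 0.0205). In that contrast circRNA calls were 0 with the Wald test, 1 with no filter, 0 at 50 counts or more and 0 in the fit of compared groups, and gene calls 0 with the Wald test, 0 at 50 counts or more and 0 in the fit of compared groups. At an unadjusted p under 0.05 edgeR had 571 circRNAs and 212 genes there. With no filter 2389 circRNAs were called from day 0 to day 45 with IGF-1 and 2117 from day 0 to day 90 with IGF-1. The RAPGEF5 total from day 0 to day 90 with IGF-1 passed at 50 counts or more (0.90), with the other read numbers of day 90 replicates 1 and 2 (0.90) and in the fit of compared groups (0.90). Exon 2-5 passed there too (1.11 in each), and with the Wald test (1.12).

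Leaving out 1 library moved the FMN1 total from day 45 to day 90 with IGF-1 between 1.40 and 3.02, and FMN1 exon 4 between 1.17 and 2.81, the latter called, without day 45 IGF-1 replicate 3. Calls then ranged from 0 to 4 circRNAs and 0 to 7 genes in that contrast, with 7 genes without day 45 IGF-1 replicate 2, from 2526 to 3527 circRNAs from day 0 to day 45 with IGF-1 and from 2252 to 3412 from day 0 to day 90 with IGF-1, each lowest without day 0 replicate 2.

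Replicate numbers did not pair the libraries. Of 30 correlations between same-numbered libraries, from -0.0414 to 0.102, 1 was over 0.1, and 6 of 15 libraries were closest to their own number. With the replicate block 0 circRNAs and 2 genes were called from day 45 to day 90 with IGF-1, the FMN1 total changed by 2.24 (adjusted p = 0.0280) and the RAPGEF5 total by 1.52. Counts per library of 5 to 145 for RAPGEF5 and 0 to 115 for FMN1 limit what these comparisons can show.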
